A study of Mus musculus with 6 samples.

Results

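SWI/SNF (BAF) complexes are chromatin remodelers, assemblies of many proteins that use ATP to slide or eject nucleosomes and so open DNA to transcription factors. Each complex carries 1 ATPase, either SMARCA4 (BRG1) or its paralog SMARCA2 (BRM), on a core that the kinds share only in part. Further subunits mark its kind: ARID1A or ARID1B in canonical BAF (cBAF), ARID2 and PBRM1 in polybromo-associated BAF (PBAF), and BRD9 in non-canonical BAF (ncBAF). Genes of these subunits, among them ARID1A and ARID2, are recurrently mutated in human liver cancer. The 10 subunit genes described here, Smarca2, Smarca4, Arid1a, Arid1b, Arid2, Pbrm1, Smarcb1, Smarcc1, Smarcd3 and Brd9, were chosen by name, as subunits of these complexes, from a table of 53465 mouse genes, and each was found once and passed the filter on low counts.

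RNA-seq read counts were compared between 3 Myc_Utx lines (2A, 2B and 2D), called Myc;sgKdm6a in the study, and 3 Myc_p53 lines (1, 2 and 3). The lines were grown from liver tumours that arose in C57BL/6 mice after tail vein injection of a Myc transposon with Cas9 constructs. In the Myc_Utx lines these targeted Kdm6a (Utx), which encodes an H3K27 demethylase of COMPASS-like complexes, and in the Myc_p53 lines they targeted another gene. Every line therefore carries the Myc transgene and 1 targeted gene. A line with Myc alone, or untransformed hepatocytes, were not part of the comparison, so a difference cannot be assigned to one group as its departure from normal liver. Each line came from an independent tumour and was a primary culture passaged until other cell types were no longer visible.

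Total counts ranged from 4656103 to 5473042 in the Myc_Utx lines and from 5370608 to 6937497 in the Myc_p53 lines. Kdm6a transcripts were measured at 39.5, 45.5 and 48.8 CPM (counts scaled to library size) in Myc_Utx lines 2A, 2B and 2D, and at 69.2, 64.2 and 42.3 CPM in Myc_p53 lines 1, 2 and 3. The ranges overlapped, and a transcript count need not fall when Cas9 edits the coding sequence. Of the hepatocyte markers, Alb, the albumin gene, was close to absent, between 0.887 and 4.85 CPM in all 6 lines. Fgb of the same list stood at 2.18, 1.12 and 44.1 CPM in Myc_Utx lines 2A, 2B and 2D. In Myc_p53 lines 1, 2 and 3 Fgb stood at 25.2, 18.4 and 14.8 CPM. Of 11 macrophage markers, 9 were higher in every Myc_p53 line than in every Myc_Utx line, Cd14 had the opposite order, and the summed level of the list ran from 37.7 to 56.4 CPM in Myc_Utx and from 64.9 to 139 CPM in Myc_p53. In Myc_Utx most of the macrophage sum was Cd14, at a mean of 39.7 CPM, against 19.9 CPM in Myc_p53. The 9 markers higher in Myc_p53 had means of at most 0.311 CPM in Myc_Utx and at least 1.09 CPM in Myc_p53. The macrophage sums therefore do not show the size of the difference in those 9. Among them, C1qc, Adgre1 and Tyrobp were at 0 in all Myc_Utx lines. Fibroblast markers summed to 1940 to 2680 CPM in Myc_Utx and 41.2 to 3150 CPM in Myc_p53, cholangiocyte markers to 508 to 1430 and 152 to 1450 CPM, hepatocyte markers to 8.34 to 46.3 and 29.3 to 41.2 CPM, endothelial markers to at most 1.42 CPM, and the fetal liver marker Afp to at most 3.15 CPM. In Myc_Utx most of the fibroblast sum was Col3a1 (1720 to 2550 CPM) and most of the cholangiocyte sum was Spp1 (447 to 1360 CPM). Single markers in these lists separated the groups, to be read beside the 20.9% and 21.1% of all genes tested given above. Higher in every Myc_p53 line were 2 of 5 cholangiocyte markers (Krt19, with means of 26.6 and 246 CPM, and Krt7, with 0.214 and 27.1 CPM), 2 of 8 hepatocyte markers (Trf and Hnf4a) and 1 of 8 fibroblast markers (Dcn), and Apoa1 alone among these was higher in every Myc_Utx line, at a mean of 0.731 CPM. The part of other cell types in the subunit values was not tested, and in such bulk RNA fewer cells of a type and less RNA per cell cannot be told apart.

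Promoter sequences are shown first for 5 subunits: the 2 ATPases, the core subunit Smarcb1, Arid1b, and Pbrm1, whose window held a canonical E-box. The E-box CACGTG is the sequence bound by MYC and its partner MAX, and the GC box GGGCGG is bound by SP1-type factors of promoters rich in CpG. The windows are from RefSeq, build GRCm38.p6, cover 250 bases before to 50 bases after a transcription start, and are written 5′ to 3′ on the strand of the gene. The Arid1b window lies inside the gene as counted, which begins at base 4994332, so it is not upstream of the whole gene. Capitals mark GC boxes on either strand and, in Pbrm1, also the E-box.
Smarca2, chr19:26604910-26605209, plus strand: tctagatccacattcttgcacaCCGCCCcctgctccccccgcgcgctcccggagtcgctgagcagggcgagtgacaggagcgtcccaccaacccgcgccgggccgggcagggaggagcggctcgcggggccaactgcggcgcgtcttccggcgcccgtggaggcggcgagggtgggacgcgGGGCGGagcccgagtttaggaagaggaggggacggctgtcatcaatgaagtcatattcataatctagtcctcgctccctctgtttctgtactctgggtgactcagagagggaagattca
Smarca4, chr9:21615919-21616218, plus strand: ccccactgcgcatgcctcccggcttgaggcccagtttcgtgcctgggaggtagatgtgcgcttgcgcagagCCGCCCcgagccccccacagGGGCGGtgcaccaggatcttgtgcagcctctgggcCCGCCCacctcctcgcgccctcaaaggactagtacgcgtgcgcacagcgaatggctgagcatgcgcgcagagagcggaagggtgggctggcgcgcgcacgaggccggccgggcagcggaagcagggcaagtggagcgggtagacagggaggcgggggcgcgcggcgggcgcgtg
Smarcb1, chr10:75921565-75921864, minus strand: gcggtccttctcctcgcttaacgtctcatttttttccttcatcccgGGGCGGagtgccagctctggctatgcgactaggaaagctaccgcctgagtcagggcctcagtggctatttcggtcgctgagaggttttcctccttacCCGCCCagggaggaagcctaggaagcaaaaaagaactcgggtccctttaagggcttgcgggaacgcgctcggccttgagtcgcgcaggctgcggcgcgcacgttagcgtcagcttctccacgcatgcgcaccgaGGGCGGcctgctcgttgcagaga
Arid1b, chr17:4994824-4995123, plus strand: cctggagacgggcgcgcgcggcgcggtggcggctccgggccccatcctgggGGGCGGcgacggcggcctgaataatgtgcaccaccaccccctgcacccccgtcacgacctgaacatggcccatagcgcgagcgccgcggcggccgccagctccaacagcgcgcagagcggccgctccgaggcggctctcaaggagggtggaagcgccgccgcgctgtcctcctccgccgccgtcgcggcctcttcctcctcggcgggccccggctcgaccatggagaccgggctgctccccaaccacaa
Pbrm1, chr14:31018888-31019187, plus strand: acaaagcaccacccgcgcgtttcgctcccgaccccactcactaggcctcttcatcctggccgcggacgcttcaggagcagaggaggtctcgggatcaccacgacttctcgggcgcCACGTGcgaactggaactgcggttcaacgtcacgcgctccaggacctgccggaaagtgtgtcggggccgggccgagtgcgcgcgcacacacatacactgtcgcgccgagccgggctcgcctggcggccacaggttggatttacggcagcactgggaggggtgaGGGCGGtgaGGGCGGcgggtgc

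The promoter table held 11 windows for 9 of the 10 members and none for Arid2. All 11 windows had at least 1 GC box, which 35.7% of 32851 promoters in the same table hold. They contained 22 to 42 CpG dinucleotides each, against a median of 7 over all promoters. CACGTG was found in the Pbrm1 window and in no other member's window, and in 7.15% of all promoters. None of the 11 windows held TATAAA, which 13.6% of all promoters hold on either strand, or CCAAT, which 37.4% hold. Their GC content ran from 60.7% (Smarcb1) to 79.7% (an Arid1a window). Like the Arid1b window, the Smarcc1 window, the Smarcd3 window and that Arid1a window lie inside their genes as counted. The Brd9 windows share most of their bases. A match or its absence in these windows says nothing of whether a factor binds there.

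Across the 10 members, 2 were called lower in the Myc_Utx lines, Arid1b and Arid2, and 0 were called higher, by edgeR's quasi-likelihood test with 0.05 as the limit of the adjusted p. In the table as a whole, 7.69% of 11510 genes tested were called lower, 6.99% higher and 14.7% in either direction. Among genes with at least 10000 bases of exon, which Arid1b and Arid2 both have, 17.2% were called lower. Before adjustment, 6 members had p under 0.05 in the edgeR test, beside 4025 of 11510 genes in all. By adjusted p, DESeq2 called 2 members higher and 4 lower, where it called 11.0% of all genes higher and 13.2% lower. The lines of the groups did not overlap for 7 members, of which Smarca2 and Smarcb1 were higher in every Myc_Utx line and Smarca4, Arid1a, Arid1b, Arid2 and Smarcc1 were lower. Groups did not overlap for 42.0% of all genes tested, 21.1% higher and 20.9% lower. Log2 fold changes of the 10 members ran from -0.55 (Arid1b) to 0.94 (Smarca2). Their median was -0.16, beside -0.01 for all genes tested, and as opposite signs cancel in it, it does not measure their size.

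**Figure D1:**
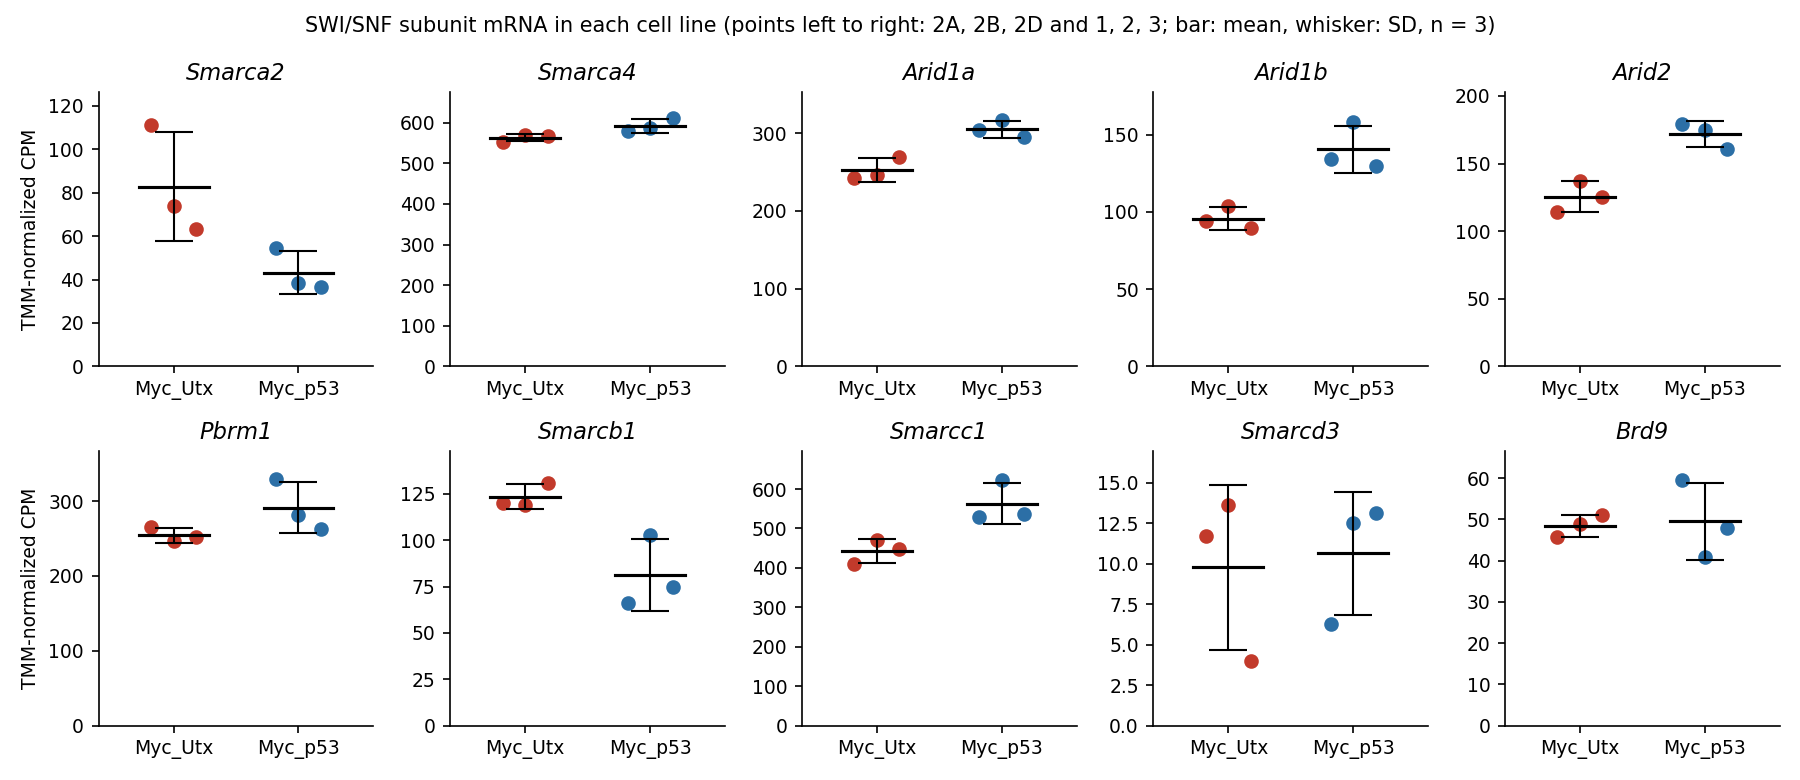
TMM-normalized CPM (vertical axis) of the 10 subunits in each of the 6 cell lines, with the mean as a bar and the SD as a whisker (n = 3 lines per group). Smarca2 and Smarcb1 lie higher in all 3 Myc_Utx lines, Arid1b and Arid2 lie lower in all 3, and Smarcd3 and Brd9 overlap.

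The ATPases were measured at very different levels. Smarca4, the dominant ATPase of proliferating cells, stood at 553, 569 and 566 CPM in Myc_Utx lines 2A, 2B and 2D and at 579, 586 and 611 CPM in Myc_p53 lines 1, 2 and 3. Relative to its mean it was the steadiest member from line to line. The SD was 8.31 CPM on a mean of 563 CPM in Myc_Utx and 16.5 CPM on 592 CPM in Myc_p53. The log2 fold change was -0.07 ± 0.09 (SE; Myc_Utx over Myc_p53, edgeR adjusted p = 0.587). Although the lines did not overlap, the difference was smaller than its standard error. Its paralog Smarca2 was measured at 111, 73.8 and 63.4 CPM in the Myc_Utx lines and at 54.7, 38.4 and 36.5 CPM in the Myc_p53 lines. Every Myc_Utx line exceeded every Myc_p53 line, line 2A being the highest by a wide margin. The log2 fold change was 0.94 ± 0.27, and the adjusted p of 0.0614 from edgeR was just above the threshold. DESeq2 gave 0.92 ± 0.31 with an adjusted p of 0.0159. Without line 2A the log2 fold change was the smallest, 0.69, and the edgeR adjusted p over the 6 fits that each left out 1 line ranged from 0.0624 to 0.17.

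Scaled to exon length, Smarca4 was the most abundant member, at 86.9 ± 1.28 CPM per kb of exon in Myc_Utx and 91.4 ± 2.56 in Myc_p53 (SD, n = 3), while Smarca2 stood at 5.81 ± 1.77 and 3.03 ± 0.704. Within each line Smarca2 was 9.17%, 5.92% and 5.12% of the Smarca4 level per kb in Myc_Utx lines 2A, 2B and 2D, and 4.32%, 3.01% and 2.74% in Myc_p53 lines 1, 2 and 3. The log2 ratio of Smarca2 to Smarca4 was 0.99 higher in Myc_Utx (SE 0.32), and the groups did not overlap. With 3 lines against 3 a two-sided exact permutation test cannot give less than p = 0.1, which is what it gave (adjusted p = 0.233 over 7 ratios). The annotated exons of Smarca2 span 14269 bases, against 5921 in its longest coding transcript, so the percentage depends on the length used; on the longest coding transcript the mean log2 ratios were -2.69 and -3.68.

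How far reads of paralogs can be told apart depends on the stretches they share exactly. The longest identical stretch of the coding sequences of the ATPase pair and of the ARID1 pair, shown to compare with a read, were as follows.
Smarca2 and Smarca4, 20 bases: atgttggccaggggccagcc
Arid1a and Arid1b, 26 bases: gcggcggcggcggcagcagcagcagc
No 50-base word of the longest coding transcript of Smarca2, Arid1b, Pbrm1, Smarcb1 or Brd9 occurred in another gene of the annotation, and for Smarca4, Arid1a, Arid2 and Smarcc1 the share was at most 3.23%. Smarcd3 was the exception, with 24.6% of its words shared with Chpf2, a gene on the opposite strand that overlaps 48.2% of its exon bases. Whether strand was used in counting is not given in the sources used here, so Smarcd3 counts are uncertain.

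**Figure D2:**
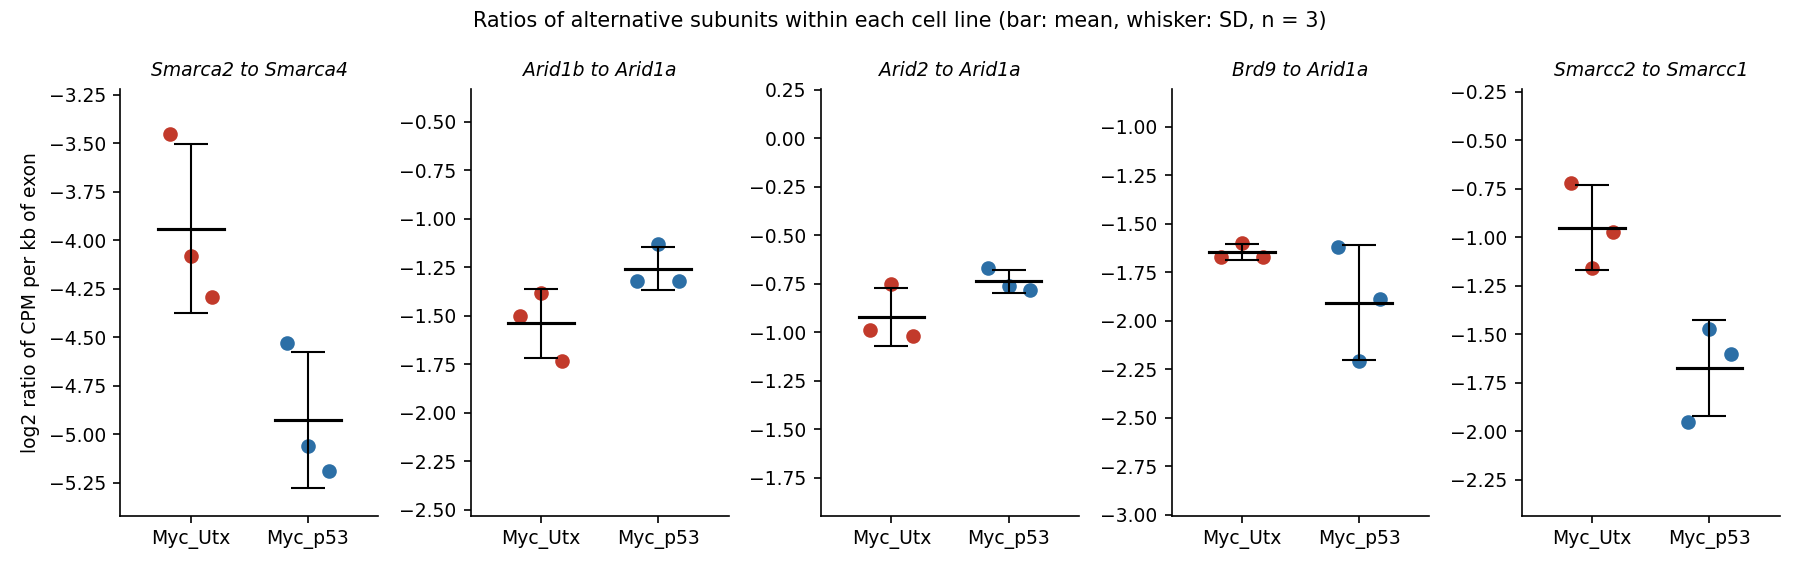
Log2 ratio of CPM per kb of exon between alternative subunits within each cell line (vertical axes span the same range and do not start at 0), with mean and SD, n = 3 lines per group. Smarca2 to Smarca4 and Smarcc2 to Smarcc1 lie higher in all 3 Myc_Utx lines and Arid1b to Arid1a lies lower, while Arid2 to Arid1a and Brd9 to Arid1a overlap.

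Of the core subunits, Smarcb1 was higher and Smarcc1 lower in every Myc_Utx line. Smarcb1 (SNF5), a core subunit lost in rhabdoid tumours, was measured at 120, 119 and 131 CPM in the Myc_Utx lines and at 66.1, 103 and 74.5 CPM in the Myc_p53 lines. The Myc_Utx lines were close together, whereas Myc_p53 line 2 lay well above the other two. The log2 fold change was 0.61 ± 0.18 and was not called by edgeR (adjusted p = 0.0682). It was called when Myc_p53 line 2 was left out, at 0.82 with an edgeR adjusted p of 0.019. Smarcc1 (BAF155), a scaffold subunit, stood at 410, 471 and 447 CPM in the Myc_Utx lines and at 529, 622 and 538 CPM in the Myc_p53 lines. All Myc_Utx lines were lower, by a log2 fold change of -0.35 ± 0.11 that edgeR did not call (adjusted p = 0.0843) and DESeq2 did (-0.37 ± 0.12, adjusted p = 0.0173). With the length offsets described further on it came to -0.16, -0.13 and -0.11, none called.

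Smarcc2, the paralog that pairs with Smarcc1 in the scaffold, overlapped between the groups, at 149 to 176 CPM in Myc_Utx and 96.3 to 159 CPM in Myc_p53. Within a line, Smarcc2 was 60.7%, 44.8% and 50.9% of the Smarcc1 level per kb in Myc_Utx and 25.8%, 36.1% and 32.9% in Myc_p53. The log2 ratio was 0.73 higher in Myc_Utx (SE 0.19, exact permutation p = 0.1, the smallest possible), with no overlap. Smarcd3 (BAF60C), the D subunit of heart and muscle, was the least abundant member. It was measured at 11.7, 13.6 and 3.99 CPM in Myc_Utx and 6.29, 12.5 and 13.1 CPM in Myc_p53. Line 2D held the lowest value, and the groups overlapped. Its log2 fold change of -0.12 ± 0.51 was far within the spread (edgeR adjusted p = 0.889) and turned positive, 0.27, without line 2D. The other D subunits were above it: the mean log2 ratio per kb of Smarcd1 to Smarcd3 was 3.63 in Myc_Utx and 3.47 in Myc_p53, and that of Smarcd2 to Smarcd3 was 4.14 and 3.61, both overlapping between the groups. Scaled to the longest coding transcript these ratios were smaller, 2.0 and 1.84 for Smarcd1 and 2.96 and 2.44 for Smarcd2.

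Of the ARID subunits of cBAF, Arid1b was called lower in the Myc_Utx lines and Arid1a was not. Arid1b, the alternative to Arid1a, was measured at 93.9, 104 and 89.3 CPM in Myc_Utx and at 134, 158 and 130 CPM in Myc_p53. The ranges stood apart, and the log2 fold change of -0.55 ± 0.13 was called by edgeR (adjusted p = 0.0379). Arid1a, the subunit most often mutated in cancer, stood at 242, 246 and 270 CPM in Myc_Utx and at 304, 317 and 295 CPM in Myc_p53. All Myc_Utx lines were lower, by a log2 fold change of -0.27 ± 0.10 that edgeR did not call (adjusted p = 0.101), and that DESeq2 called at -0.29 (adjusted p = 0.025). Arid1b was 35.4%, 38.5% and 30.2% of the Arid1a level per kb of exon in the Myc_Utx lines and 40.0%, 45.6% and 40.1% in the Myc_p53 lines. The log2 ratio was lower by 0.28 in Myc_Utx with no overlap (SE 0.12, exact permutation p = 0.1). It was -0.18 without line 2D, and with offsets on coding transcript length it was -0.20 and no longer separated the groups (exact permutation p = 0.3).

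PBAF is marked by Arid2 and Pbrm1. Arid2, its ARID subunit, was measured at 114, 137 and 125 CPM in Myc_Utx and at 179, 175 and 161 CPM in Myc_p53. The lowest Myc_p53 line was above the highest Myc_Utx line, and the log2 fold change of -0.46 ± 0.11 was called by edgeR (adjusted p = 0.0453). Pbrm1, the polybromo subunit that reads acetylated histones, stood at 265, 246 and 252 CPM in Myc_Utx and at 329, 282 and 263 CPM in Myc_p53. Line 2A exceeded the lowest Myc_p53 line, and the log2 fold change was -0.20 ± 0.12 (edgeR adjusted p = 0.270). In ncBAF, Brd9, a bromodomain protein, was measured at 45.7, 48.8 and 51.0 CPM in Myc_Utx and 59.5, 41.0 and 48.0 CPM in Myc_p53. Myc_p53 held both the highest and the lowest value, and the log2 fold change was -0.03 ± 0.17 (edgeR adjusted p = 0.917).

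The calls of Arid1b and Arid2 were close to the threshold. Leaving out any 1 of the 6 lines ended both, with log2 fold changes from -0.61 to -0.46 and adjusted p from 0.052 to 0.138 for Arid1b, and from -0.51 to -0.38 and 0.0662 to 0.145 for Arid2 (edgeR). Over all genes, such fits called from 1 to 1117 genes lower, against 885 with all lines, the fewest without line 2A.

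Per kb of exon the order of the members began with Smarca4, Smarcc1, Pbrm1 and Arid1a in both groups. Smarcc1 stood at 56.5 ± 3.89 in Myc_Utx and 71.9 ± 6.55 in Myc_p53, Pbrm1 at 28.7 ± 1.12 and 32.9 ± 3.79, and Arid1a at 22.0 ± 1.31 and 26.6 ± 0.960 CPM per kb. Smarcb1 was 5th in Myc_Utx, at 15.6 ± 0.817, and 7th in Myc_p53, at 10.2 ± 2.42. Arid2 stood at 11.6 ± 1.07 and 16.0 ± 0.902, Arid1b at 7.59 ± 0.588 and 11.2 ± 1.24, Brd9 at 6.98 ± 0.385 and 7.12 ± 1.34, and Smarcd3 lowest at 1.91 ± 0.995 and 2.08 ± 0.736. Neighbours whose mean ± SD ranges met were Arid1b, Brd9 and Smarca2 in Myc_Utx, and Arid1b with Smarcb1, Smarcb1 with Brd9, and Smarca2 with Smarcd3 in Myc_p53. Scaled to the longest coding transcript, Smarcb1 rose to the 3rd place in both groups, at 74.4 and 48.9 CPM per kb, because its exons in the table cover 7930 bases and that transcript 1660. On that scale Smarcc1 stood above Smarca4 in Myc_p53 (97.5 and 92.9 CPM per kb) and below it in Myc_Utx (76.6 and 88.2 CPM per kb), so the first place depends on the length used.

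Of the 18 other subunits, 16 were tested, and 1 was called lower and 0 higher, beside 7.69% and 6.99% of all genes. The call was Ss18l1 (CREST), the neuronal paralog of Ss18 in cBAF, at 6.35, 5.22 and 5.54 CPM in Myc_Utx and 13.8, 13.7 and 17.2 CPM in Myc_p53. It had the largest fold change of the list, -1.38 ± 0.23 (edgeR adjusted p = 0.0203), and its groups stood well apart. The call was lost in 4 of the 6 fits that left out a line (without 2A, 2B, 2D or Myc_p53 line 3), where the log2 fold changes were -1.45 to -1.27 and the edgeR adjusted p 0.0687 to 0.0871. Ss18 itself, at 133 to 157 CPM against 108 to 131 CPM, gave 0.23 ± 0.13 on the log2 scale (edgeR adjusted p = 0.234). The remaining tested subunits ran from -0.63 for Dpf1, a neuronal zinc finger subunit whose Myc_p53 line 1 stood alone at 38.4 CPM, to 0.45 for Bcl7c. Among core subunits the log2 fold changes were 0.36 for Smarcc2, -0.06 for Smarcd1, 0.31 for Smarcd2, 0.15 for Smarce1, -0.03 for Actl6a, 0.39 for Bcl7a and 0.03 for Bcl7b. In the subcomplexes they were -0.43 for Dpf2, 0.20 for Brd7, -0.10 for Phf10, -0.08 for Bicra and -0.29 for Bicral. Actl6b, the neuronal actin-related subunit, was at 0 in all lines, which allows up to 0.426 to 0.665 CPM in a line on counting error alone, and Dpf3 was at 0 in all Myc_Utx lines and at most 0.284 CPM in Myc_p53. Over the full list of 28 subunits, 26 were tested, 3 were called lower and 0 higher, and the median log2 fold change was -0.07. An unadjusted p under 0.05 was found for 9 of the 26, beside 4025 of 11510 genes in all, and DESeq2 called 2 higher and 5 lower, beside its 11.0% and 13.2% of all genes.

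Each subunit was placed in 1 list, although some occur in more than 1 kind of complex. By these lists, the median log2 fold change was 0.43 over the 2 ATPases and 0.15 over 11 tested core subunits. It was -0.49 over 6 tested cBAF subunits, -0.15 over 4 PBAF subunits and -0.08 over 3 ncBAF subunits. Positive values numbered 7 of 11 in the core, 1 of 6 in cBAF, 1 of 4 in PBAF and 0 of 3 in ncBAF, beside 5664 of 11510 over all genes, and the differences between these small lists were not tested. Leaving out a line moved the PBAF median between -0.23 and -0.04 and the ncBAF median between -0.17 and -0.05, and with exon length offsets they were -0.02 and 0.11, and that of cBAF -0.29.

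**Figure D3:**
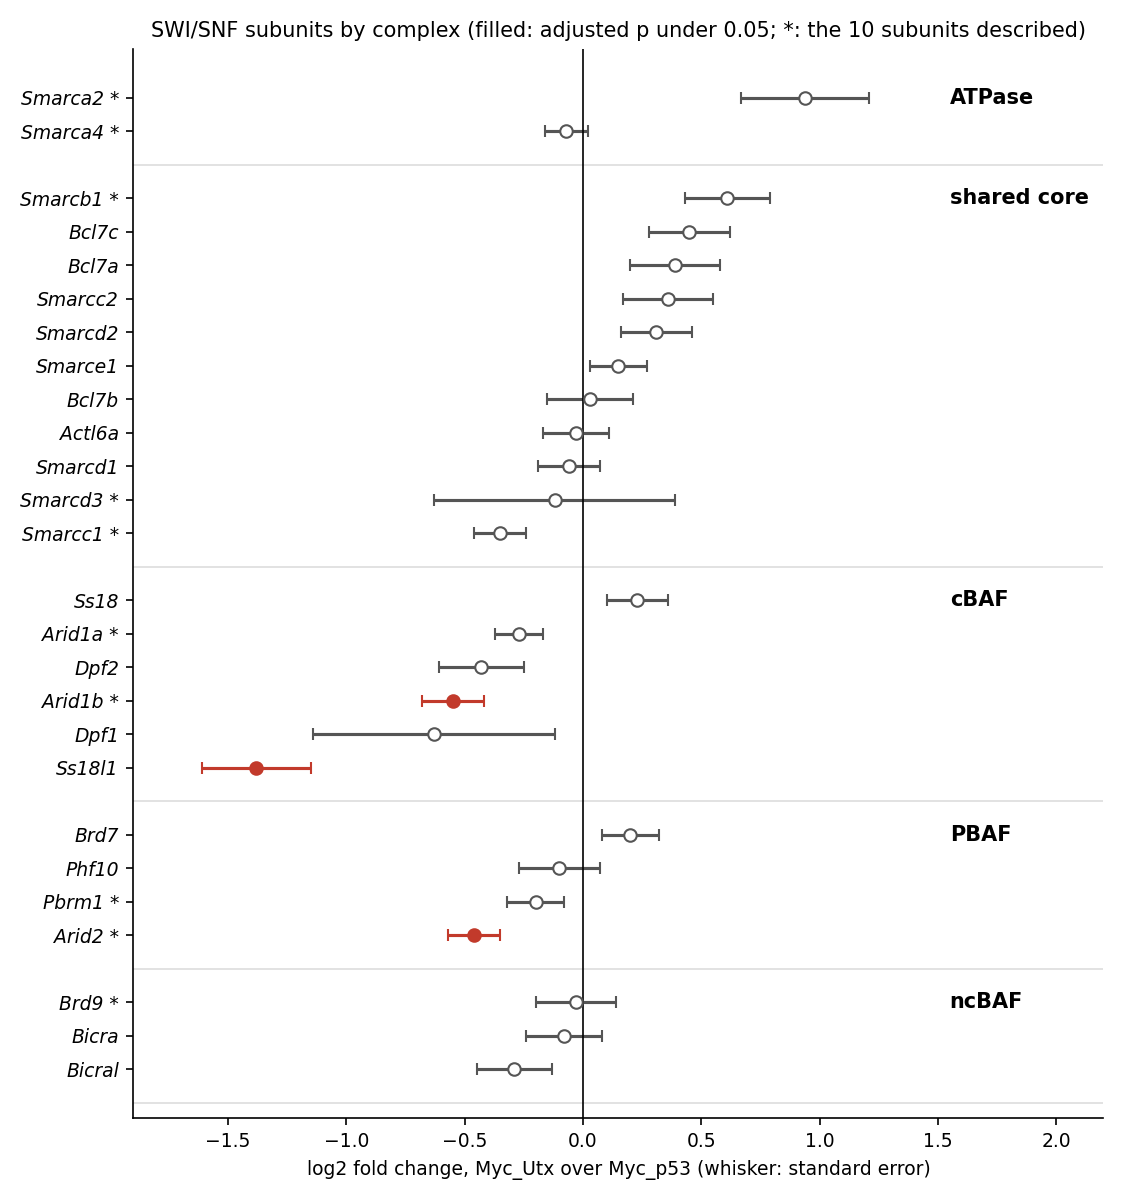
Log2 fold change of Myc_Utx over Myc_p53 (axis in log2 units, whisker: standard error) for the 26 tested SWI/SNF subunits, grouped by role, with the calls at an edgeR adjusted p under 0.05 marked. Arid1b, Arid2 and Ss18l1 are called lower, and Smarca2 has the highest value at 0.94.

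The other remodeler families each held calls in both directions, beside 6.99% higher, 7.69% lower and 14.7% in either direction over all genes. Of 10 tested ISWI genes, 1 was called higher (Chrac1, 0.76 ± 0.19, adjusted p = 0.0457) and 2 lower (Baz2b, -0.93 ± 0.16, adjusted p = 0.0206; Bptf, -0.90 ± 0.21, adjusted p = 0.0389), with a median log2 fold change of -0.22. Of 19 tested CHD and NuRD genes, the deacetylase Hdac2 (0.82 ± 0.12, adjusted p = 0.0177) and Mbd3 (0.77 ± 0.15, adjusted p = 0.0272) were called higher and Chd6 (-0.79 ± 0.17, adjusted p = 0.0346) lower. Of 20 INO80 and SRCAP genes, the AAA+ ATPase Ruvbl2 (0.87 ± 0.12, adjusted p = 0.0164) and Ino80e (0.87 ± 0.15, adjusted p = 0.0206) were called higher and Ep400 (-0.67 ± 0.10, adjusted p = 0.0185) and Ino80 (-0.51 ± 0.11, adjusted p = 0.0344) lower. The medians of these families were 0.04 and 0.19. Their genes called lower had exons of 6803 bases (Ino80) to 19093 bases (Chd6), and those called higher of 1987 bases (Mbd3) to 7644 bases (Ino80e).

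Transcript length moved with the fold change over the whole table. Across 11510 genes, which are not independent replicates, the Spearman correlation of log2 fold change with exon length was -0.249. The median log2 fold change was 0.34 in the tenth of genes with the shortest exons and -0.30 in the tenth with the longest, and of the 1148 genes with at least 10000 bases of exon 2.96% were called higher, against the 17.2% lower given above. All 10 members are longer than the median gene tested (4441 bases), and Smarca2, Arid1a, Arid1b and Arid2 each have at least 10000 bases. Arid1a, at -0.27, sat close to the median of genes of its length. Arid1b and Arid2 lay below that median but above its lower quartile of -0.70, and Smarca2, the longest member, lay far above its upper quartile of 0.09.

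**Figure D4:**
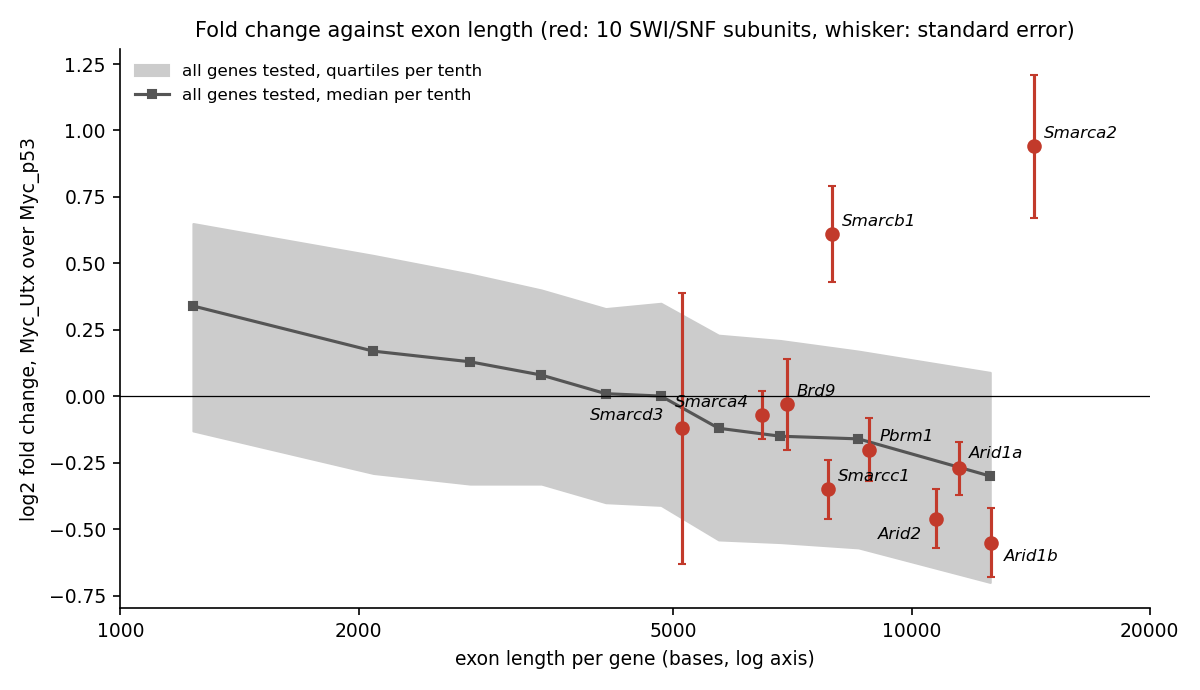
Log2 fold change of Myc_Utx over Myc_p53 (vertical axis) against exon length in bases (log axis) for the 10 subunits (whisker: standard error), over the median and quartiles of all 11510 tested genes in 10 bins of length with equal numbers of genes, each plotted at its median length. Arid1a, Pbrm1 and Brd9 sit near the median line, and Smarca2 and Smarcb1 sit above the quartile band.

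With offsets that remove the relation to exon length within each line, the calls exchanged places. Arid1b went to -0.27 ± 0.13 (edgeR adjusted p = 0.199) and Arid2 to -0.21 ± 0.12 (adjusted p = 0.286), neither called. Smarca2 went to 1.24 ± 0.27 (adjusted p = 0.0380) and Smarcb1 to 0.79 ± 0.19 (adjusted p = 0.0470), and both were then called higher, where 6.0% of all genes were called higher and 5.13% lower. Adding GC content to the offsets gave the same 2 calls, beside 5.9% and 5.09% of all genes. Ss18l1 was called lower here too, at -1.35 ± 0.23 (adjusted p = 0.0249). Offsets on the length of the longest coding transcript, an alternative added after the data were seen, again called Smarca2 higher (1.17 ± 0.27, adjusted p = 0.0471) and neither Arid1b (-0.13 ± 0.13, adjusted p = 0.554) nor Arid2 (-0.10 ± 0.13, adjusted p = 0.640), with 5.04% of all genes called higher and 4.24% lower. Smarcb1 was then 0.42 ± 0.18 (adjusted p = 0.179). The directions of Smarca4, Arid1a, Pbrm1 and Brd9 also changed under at least 1 of these offsets, each with a value of at most 0.20 in size.

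**Figure D5:**
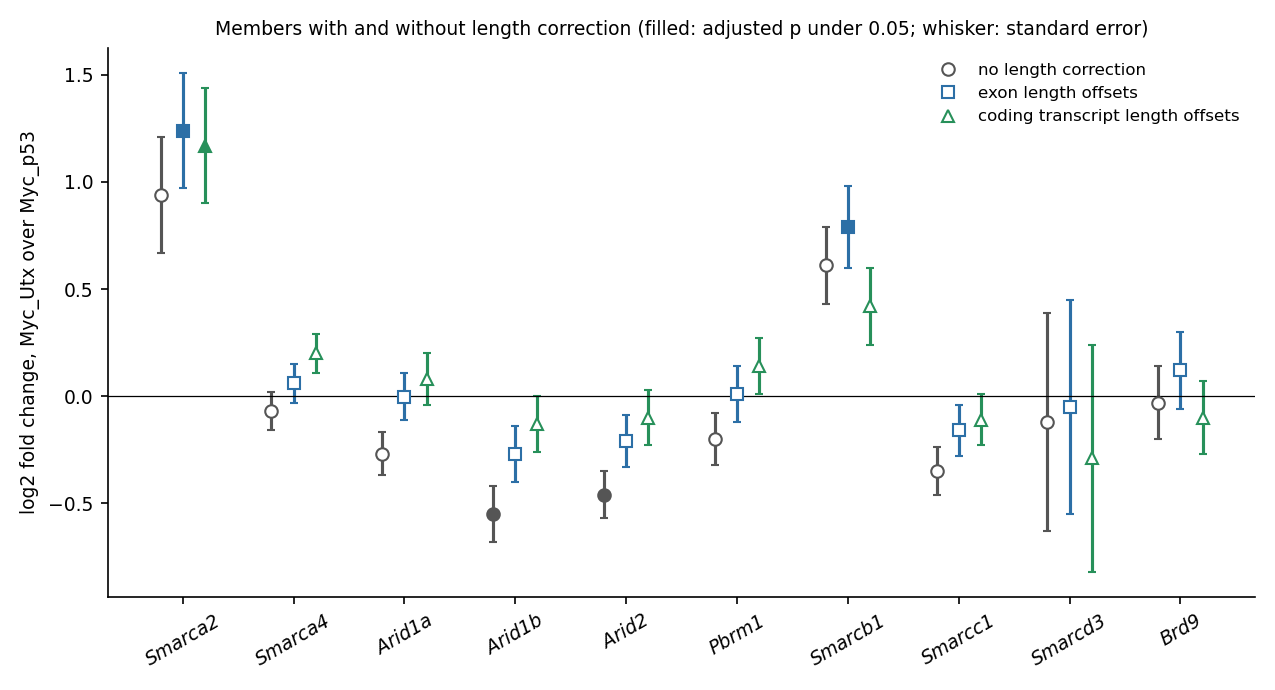
Log2 fold change of Myc_Utx over Myc_p53 (axis in log2 units) of the 10 subunits as fitted and with per-line offsets for length. Filled points have an edgeR adjusted p under 0.05: Arid1b and Arid2 are filled as fitted, Smarca2 and Smarcb1 with exon length offsets, and Smarca2 with coding transcript length offsets.

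The genes whose levels followed those of 3 members most closely over the 6 lines were found by the root mean square difference of centred log2 CPM among 9485 genes. For Smarca4 these were Sart3 (0.014), Srek1 (0.029) and Naa16 (0.041), and for Arid1a they were Cenpo (0.027), Ubap1 (0.034) and Ddx42 (0.039). The nearest to Smarca2 were Ids (0.15), Atg4a (0.17) and Cd9 (0.17). Their own log2 fold changes were 0.77, 0.88 and 0.90, which the choice by likeness over the same lines sets near that of Smarca2. Smarca4 varied little between lines, so its nearest genes are ones that also varied little.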

How the data were processed

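Total RNA of 6 mouse liver tumour cell lines was sequenced by the authors. The deposited table holds raw read counts per Ensembl gene, 1 column per line, with the exon length of each gene in bases. The submitters' processing notes name Trimmomatic 0.36, STAR 2.5.3a, featureCounts 1.6.3 and DESeq2 1.20.0 with mouse build mm10, whereas the study's methods name other lines, another counter and a human build for this step. The table itself holds mouse genes, so the notes were followed.

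Counts were analysed with edgeR 4.0.16: filterByExpr (minimum count 10), TMM factors, and the quasi-likelihood F test of Myc_Utx against Myc_p53 over 11510 genes, with Benjamini-Hochberg adjustment and a threshold of 0.05. Fold changes are from this model, and CPM are scaled by TMM. DESeq2 1.42.0 was the alternative tool. Length offsets were fitted per line by robust regression on natural splines with 5 degrees of freedom (MASS). Ratios used 0.5 CPM as pseudocount, CPM per kb and two-sided exact permutation tests. The procedure was tested on simulated data. Counting intervals and limits of 0 cover counting error only, and with 3 lines per group p-values rest on 6 samples.

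The 10 members, the 18 other subunits, the other remodeler families and the cell type markers were chosen with earlier results of these data known. Every subunit is named, of the other families those with an adjusted p under 0.05, beside Kdm6a, markers and, for Smarca4, Smarca2 and Arid1a, the 3 nearest genes (only genes averaging 50 or more counts were searched). Chpf2 was named after its overlap with Smarcd3 was seen. The level of the gene targeted in the Myc_p53 lines is not reported here.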

Additional observations from a re-analysis of the deposited data

How the results depend on the processing

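No paired analysis was possible because the lines of one group share no replicate label with the lines of the other. Of 224 values of single genes recomputed with all 6 lines, 190 kept their direction and their side of the threshold, 8 lost and 9 gained a call, and 17 changed sign. Of 392 with fits that left out a line included, 31 changed sign, all among values that were not called. Except where stated, the cause was not tested.

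Counts of calls depended on the tool, the filter and the offsets. Over all genes DESeq2 called 1268 higher and 1514 lower, and 591, 585 and 463 were lower with offsets on exon length, on exon length with GC content, and on coding transcript length. Of the 10 members, 2, 2 and 1 were higher under these offsets and 2 with DESeq2, and 0 were lower under each offset and with no filter on low counts, against 4 with DESeq2. Of the full list, 2, 2 and 1 were higher under the offsets and 2 with DESeq2, and 1 was lower under each offset and with no filter, against 5 with DESeq2. ISWI calls fell to 0 in both directions under all offsets, and its higher count to 0 with no filter or total counts only. CHD and NuRD had 1 higher and 0 lower under each offset and 4 lower with DESeq2. INO80 and SRCAP had 0 lower under each offset, 1 with no filter and 4 with DESeq2.

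The median of the 10 members was -0.13 with no filter, -0.20 with at least 10 counts in every line, -0.18 with DESeq2 or its size factors and -0.21 with total counts only, and 0.01, -0.00019 and -0.01 under the 3 offsets in the order above. That of the full list was -0.11 with at least 10 counts, -0.13 with total counts, and 0.01, 0.02 and 0.04 under the offsets. Under the offsets the medians were 0.65, 0.68 and 0.69 for the ATPases, 0.29 and 0.23 (exon length, then with GC) for the core, -0.29, -0.26 and -0.27 for cBAF, -0.02 (exon length) and 0.02 (coding length) for PBAF, 0.11 and 0.14 (exon length, then with GC) for ncBAF, 0.01, 0.03 and 0.05 for ISWI (-0.32 with no filter), 0.17 and 0.19 for CHD and NuRD, and 0.08 (coding length) for INO80 and SRCAP. Signs turned under the 3 offsets for Smarca4 (0.06, 0.09, 0.20), Bcl7b (-0.10, -0.09, -0.15; also -0.02 with at least 10 counts and -0.04 with total counts) and Bicra (0.11, 0.14, 0.17), under 2 of them for Arid1a (0.04 with GC, 0.08 coding), Pbrm1 (0.01 exon, 0.14 coding) and Brd9 (0.12 exon, 0.16 with GC), and for the Brd9 to Arid1a ratio (-0.17 coding).

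Leaving out 1 line at a time, 3 to 836 genes were higher and 1 to 1117 lower over all genes, with the fewest without line 2A; 0 to 1 members were higher (Smarcb1, without Myc_p53 line 2) and 0 lower, and 0 to 1 of the full list in each direction. Fewer samples per fit are part of that construction. In the same fits ISWI had 0 higher and 0 to 2 lower, CHD and NuRD 0 to 3 higher and 0 to 2 lower, and INO80 and SRCAP 0 to 2 higher and 0 to 3 lower. Medians ran from -0.22 to -0.12 for the 10 members, -0.09 to 0.02 for the full list, 0.07 to 0.23 for the core, -0.35 to -0.22 for ISWI and 0.05 to 0.26 for INO80 and SRCAP, and the Smarcd1 to Smarcd3 ratio from -0.30 to 0.57. The sign turned without at least 1 line for Smarcd1 (-0.11 to 0.03), Smarcd3 (-0.42 to 0.27, positive without line 2D or Myc_p53 line 2 or 3), Actl6a (-0.10 to 0.10), Bcl7b (-0.11 to 0.11), Dpf1 (-1.01 to 0.01, positive without Myc_p53 line 1), Phf10 (-0.25 to 0.03), Brd9 (-0.15 to 0.12) and Bicra (-0.17 to 0.02). The Smarcd1 to Smarcd3 ratio was -0.30 without 2D and -0.05 without Myc_p53 2 or 3. Of the tested subunits Smarcd3, Ss18l1 and Dpf1 had the lowest CPM and so the fewest counts per line.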
